A study of Mus musculus with 8 samples.

Results

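The c-Jun binding sites of Klf4-transgenic mouse epiblast stem cells (kEpiSCs) were described as 1 set of 6032 genomic regions. The set holds every peak that the authors called from chromatin immunoprecipitation sequencing (ChIP-seq) of c-Jun in kEpiSCs over kEpiSC input, with no further selection. The series holds 22198 peaks in 2 lists, and the other 16166, from the EpiSC line without the transgene, served as background. EpiSCs are pluripotent cells in the primed state. The labels of all 8 libraries give a feeder-free medium with Activin A and bFGF, while the study's methods describe culture both on feeders and without them and do not say which was used for ChIP. The kEpiSC line was made by infecting EpiSCs with a lentivirus carrying Klf4, and it also carries an Oct4-GFP reporter, as do the mice from which the study's EpiSCs were derived. Exogenous Klf4 is used to drive the primed to naive transition. The paper reports that kEpiSCs stayed primed in primed medium and that conversion was induced by a change of medium. By the medium in the labels, the kEpiSC list shows where c-Jun sat in this line before conversion, not during it. The labels give 2 c-Jun ChIP and 2 input libraries for kEpiSCs and the same for EpiSCs, with no passage, age or clone, and name a strain (CBA/CaJ X C57BL/6J) only for the EpiSC c-Jun libraries.

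Each line has 1 deposited peak list, named beside a merged signal track in the labels, so there is no value per library and no spread between replicates for any peak. The intervals below are 95% intervals of counts of peaks or sites. They cover counting error only, and differences between peak lists were not tested. The labels name c-Jun as the ChIP antibody of these libraries, while the protocol text attached to them names an antibody against H3K27ac. The cell type could not be checked from these data, which hold no expression values, and the c-Jun label was read against the AP-1 site content described below.

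Widths ran from 119 to 1182 bp around a median of 179 bp. Fold enrichment over input ran from 2.25 to 28.5, and its median was 7.23. Solving the fold and the p-value of each peak for whole reads gave a median of 14 reads at the summit, with a lower quartile of 11 and an upper quartile of 18. Enrichment therefore rested on few reads at most peaks, and the order of genes whose folds lie close together below is that of the deposited values, not a tested ranking.

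c-Jun binds DNA as part of activator protein-1 (AP-1), a dimer of Jun, Fos, Atf and Maf family proteins that pair through leucine zippers. Jun-Fos dimers prefer the TPA response element, the palindrome-like TGAGTCA, and Jun-Atf dimers prefer the cAMP response element (CRE), TGACGTCA. c-Jun is phosphorylated by the JNK kinases, and AP-1 is known for immediate early, stress, adhesion and cytoskeletal genes in somatic cells. Klf4 is a zinc finger protein of the naive pluripotency network.

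The sequences below are read 5′ to 3′ from the plus strand of mm10. The first set shows peaks of high fold outside and inside promoters, with the AP-1 site TGAGTCA or its reverse complement TGACTCA in capitals. Each window holds 121 bp around the summit. The Slco2a1 peak (chr9:102993922-102994042) lay between genes, 14419 bp upstream of this prostaglandin transporter gene, and had the highest fold of the list (28.5). Its site is close to the summit but outside the central 200 bp of this 382 bp peak, so it counts as a peak without a site in the shares below. The Fars2 peak (chr13:36203186-36203306) lay in intron 1 of the gene for mitochondrial phenylalanyl-tRNA synthetase, and a run of 34 bp occurs more than once in its window. The Prkag3 peak (chr1:74749467-74749587) and the Vim peak (chr2:13573532-13573652) lay in promoters, 568 bp upstream of the gene for a gamma subunit of AMP-activated kinase and 701 bp upstream of the vimentin gene.
Slco2a1: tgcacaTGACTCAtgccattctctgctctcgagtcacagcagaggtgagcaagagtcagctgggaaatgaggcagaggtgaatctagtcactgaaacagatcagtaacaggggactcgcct
Fars2: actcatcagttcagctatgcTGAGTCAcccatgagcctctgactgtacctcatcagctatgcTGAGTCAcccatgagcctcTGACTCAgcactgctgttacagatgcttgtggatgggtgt
Prkag3: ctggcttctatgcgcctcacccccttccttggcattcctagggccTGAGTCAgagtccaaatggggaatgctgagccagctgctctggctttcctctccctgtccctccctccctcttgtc
Vim: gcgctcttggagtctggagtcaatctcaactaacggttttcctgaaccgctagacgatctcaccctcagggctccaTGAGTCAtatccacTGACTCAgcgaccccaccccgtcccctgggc

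The next set shows promoter peaks of a different kind, with TGACGTCA in capitals, which is its own reverse complement. They have the highest folds among promoter peaks that hold it and whose window lies outside transcribed sequence, and were chosen after their values were seen. Dusp8 (chr7:142095318-142095438) encodes a phosphatase of JNK and p38, and Pak1 (chr7:97788272-97788392) a kinase of the actin cytoskeleton. The starts of both sites lie 44 bp apart at Dusp8 and 52 bp apart at Pak1. The promoter of Jun itself (chr4:95052232-95052352) is printed with them, with TGATGTCA in capitals, the reverse complement of TGACATCA.
Dusp8: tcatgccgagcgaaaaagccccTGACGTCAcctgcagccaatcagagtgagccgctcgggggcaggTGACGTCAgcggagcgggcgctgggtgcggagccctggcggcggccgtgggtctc
Pak1: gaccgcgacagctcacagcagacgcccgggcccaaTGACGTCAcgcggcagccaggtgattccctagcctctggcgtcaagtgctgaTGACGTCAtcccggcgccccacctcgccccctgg
Jun: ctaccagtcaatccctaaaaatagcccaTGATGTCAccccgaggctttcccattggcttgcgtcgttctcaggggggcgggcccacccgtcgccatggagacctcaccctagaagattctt

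Arrays of AP-1 sites are shown by the peak 301335 bp from Foxa2 (chr2:147744047-147744210, the whole peak), whose gene encodes an endoderm transcription factor, and by a window of the peak in intron 5 of Atxn1 (chr13:45623818-45623938). In the Foxa2 peak 6 sites lie in 164 bp, and the last 5 are each 10 bp apart from start to start. The Atxn1 window holds 4 of the 16 sites of its peak.
Foxa2: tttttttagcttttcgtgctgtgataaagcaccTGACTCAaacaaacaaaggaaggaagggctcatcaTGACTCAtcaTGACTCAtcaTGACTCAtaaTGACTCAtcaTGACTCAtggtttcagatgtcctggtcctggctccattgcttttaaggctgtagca
Atxn1: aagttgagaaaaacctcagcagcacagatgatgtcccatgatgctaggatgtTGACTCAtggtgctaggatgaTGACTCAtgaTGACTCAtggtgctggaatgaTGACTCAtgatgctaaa

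The last set shows peaks upstream of genes that the study's question names or that encode AP-1 and Klf proteins: Junb (chr8:84985641-84985761, peak 6944 bp upstream), Fosb (chr7:19316935-19317055, 6885 bp upstream), Klf4 (chr4:55541802-55541922, 9410 bp upstream) and Klf2 (chr8:72311024-72311144, 7969 bp upstream). AP-1 sites are in capitals.
Junb: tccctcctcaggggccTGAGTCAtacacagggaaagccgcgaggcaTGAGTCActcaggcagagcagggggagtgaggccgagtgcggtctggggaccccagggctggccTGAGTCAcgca
Fosb: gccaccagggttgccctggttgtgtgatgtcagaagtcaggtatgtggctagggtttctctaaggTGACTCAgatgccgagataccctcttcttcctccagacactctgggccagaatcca
Klf4: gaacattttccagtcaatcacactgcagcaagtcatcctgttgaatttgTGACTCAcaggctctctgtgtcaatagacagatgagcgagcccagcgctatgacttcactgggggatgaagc
Klf2: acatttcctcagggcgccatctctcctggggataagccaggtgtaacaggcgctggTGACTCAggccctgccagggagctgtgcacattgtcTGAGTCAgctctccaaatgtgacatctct

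c-Jun peaks in kEpiSCs lay mostly away from gene starts. Each peak centre was given 1 class from the RefSeq annotation of mm10, in the order promoter (1000 bp upstream to 100 bp downstream of a transcription start site, TSS), 5′ UTR, coding exon, 3′ UTR, noncoding exon, intron and between genes. Introns held 2693 peaks (44.6%, interval 43.4 to 45.9%) and the space between genes held 2649 (43.9%, 42.7 to 45.2%). Promoters held 469 peaks (7.78%, 7.13 to 8.48%). These promoter windows make up 1.19% of the sequenced genome, so peaks were 6.55 times as dense there as in the genome as a whole. Between genes the ratio was 0.732.

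Exons outside promoters held few peaks. The 36 peaks in 5′ UTRs were 5.17 times and the 40 in noncoding exons 3.08 times as frequent as the bases of those classes. Coding exons (87 peaks) and 3′ UTRs (58 peaks) were close to their share of bases, with ratios of 1.13 and 1.01. In the EpiSC list, as background, promoters held 9.84% of peaks.

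**Figure D1:**
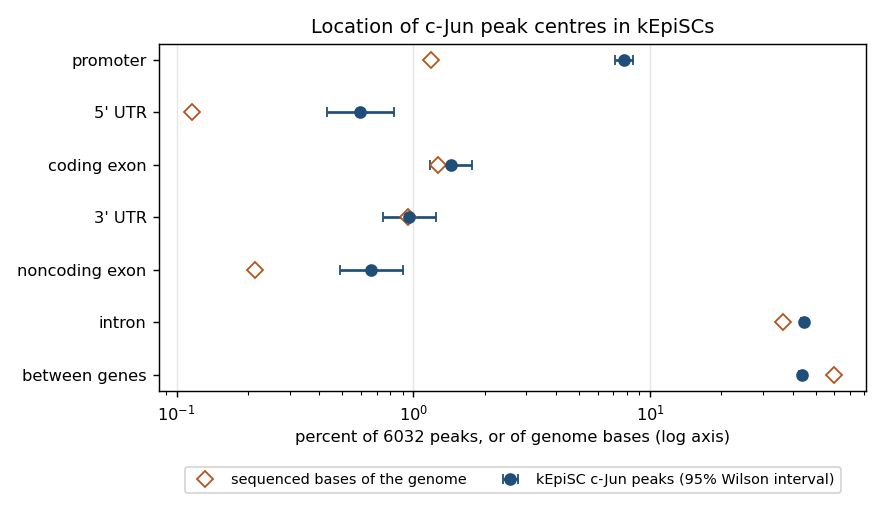
Percent of the 6032 kEpiSC c-Jun peaks (filled points, with 95% Wilson intervals) and of the sequenced bases of the genome (open diamonds) in each of 7 location classes, on a log axis. Promoters and 5′ UTRs hold more peaks than bases (6.55 and 5.17 times), coding exons and 3′ UTRs about as many, and the space between genes fewer (0.732 times).

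Measured from the nearest start of a protein-coding gene, the median peak lay 24834 bp away. Only 507 peaks (8.41%) were under 1 kb from such a start, and 312 of them were on its upstream side. The largest distance class was 10 to 50 kb, with 2484 peaks (41.2%). A further 806 peaks (13.4%) lay over 100 kb away in the second-last distance class, and 31 (0.514%) farther away still. The farthest was 1984295 bp from Cntnap5b, which encodes a neuronal cell adhesion protein, with a fold of 9.96. Peaks near Cntnap5a (1742390 bp) and Brinp3 (1305263 bp) also lay in gene deserts of chromosome 1, with 2 AP-1 sites each. All 3 overlapped an EpiSC peak, as did 75.8% of all 6032 kEpiSC peaks.

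AP-1 site content differed between promoters and the rest of the genome. In the central 200 bp of the peak, 119 of 469 promoter peaks held TGAGTCA on either strand (25.4%, 21.6 to 29.5%). In gene bodies, which group the exon and intron classes, 1755 of 2914 did (60.2%, 58.4 to 62.0%), and between genes 1657 of 2649 did (62.6%, 60.7 to 64.4%). The promoter share minus the gene body share was -34.9 percentage points (Newcombe interval -39.0 to -30.4) and minus the share between genes it was -37.2 points (-41.3 to -32.7). Gene bodies and the space between genes differed by -2.33 points (-4.88 to 0.237), an interval that holds 0.

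Windows of the same length 2 kb on either side of each peak held the site at 3.52% for promoters, 3.91% for gene bodies and 4.398% between genes. Promoter peaks thus held it 7.21 times as often as their own flanks, gene body peaks 15.4 times and peaks between genes 14.2 times. Among all 32851 RefSeq promoters of 300 bp, 5.20% hold the site. The EpiSC list showed the same order, with 16.3% in promoters, 48.7% in gene bodies and 49.5% between genes.

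Within gene bodies the classes were not alike. The site stood in 61.6% of intron peaks (59.8 to 63.5%) and 69.0% of 3′ UTR peaks (56.2 to 79.4%, n = 58), against 28.7% of coding exon peaks (20.3 to 39.0%, n = 87) and 27.8% of 5′ UTR peaks (15.8 to 44.0%, n = 36). Peaks in 5′ UTRs and coding exons were close to promoter peaks in share, and their sequence was also GC-rich, with mean GC of 61.8% and 57.6% against 61.5% in promoters, 50.1% in introns and 51.0% in 3′ UTRs.

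Base composition moved with these shares. A peak was called CpG-rich when its central 200 bp had at least 55% GC and a ratio of observed to expected CpG of at least 0.6. By that rule 276 of the 469 promoter peaks (58.8%) were CpG-rich, against 3.29% in gene bodies and 2.04% between genes. CpG-rich promoter peaks held TGAGTCA in 13.4% (9.88 to 17.9%) and other promoter peaks in 42.5% (35.7 to 49.5%). Outside promoters the CpG-rich peaks again held it less often, in 28.1% (20.1 to 37.8%, n = 96) of gene body peaks and 46.3% (33.7 to 59.4%, n = 54) of peaks between genes. Other gene body peaks held it in 61.3% (59.5 to 63.1%). How far composition accounts for the promoter share was not tested.

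The CRE-type site TGACGTCA showed the opposite distribution. It stood in 51 of 469 promoter peaks (10.9%, 8.37 to 14.0%), in 47 of 2914 gene body peaks (1.61%, 1.22 to 2.14%) and in 47 of 2649 between genes (1.77%, 1.34 to 2.35%). None of the 938 promoter flanks held it (interval 0 to 0.408%), and 1.79% of all RefSeq promoters do. Of the CpG-rich promoter peaks 16.7% (12.7 to 21.5%) held it, against 2.59% (1.11 to 5.92%) of the other promoter peaks. Of the 145 peaks that held it, 29 also held TGAGTCA. It stood in 0.821% of the peaks with the AP-1 site (flanks 0.212%) and in 4.64% of those without (flanks 0.2999%), above its flanks in both. With either site counted, promoter peaks reached 36.0% (31.8 to 40.5%).

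**Figure D2:**
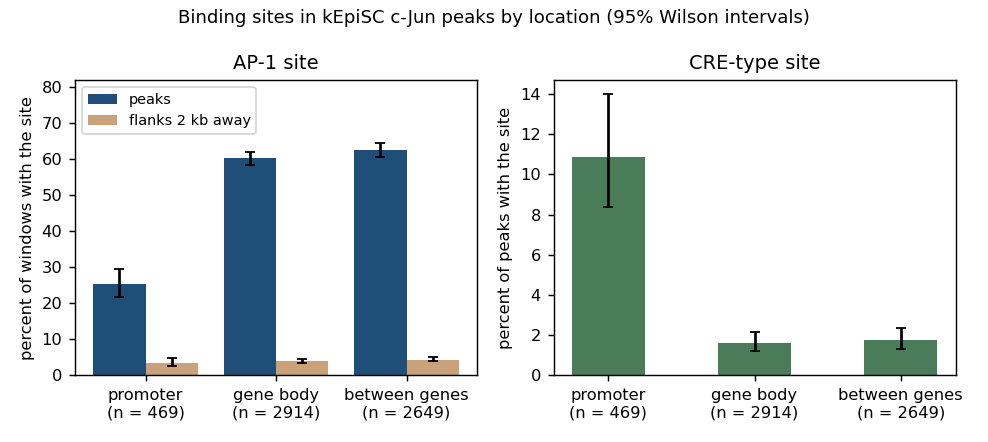
Left, percent of kEpiSC c-Jun peaks whose central 200 bp holds the AP-1 site, and of windows of the same length 2 kb away; right, percent of peaks that hold the CRE-type site; bars are shares with 95% Wilson intervals. The AP-1 site falls from 62.6% between genes to 25.4% in promoters, while the CRE-type site rises from 1.77% to 10.9%.

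Peaks with stronger support held the AP-1 site more often in promoters, gene bodies and between genes alike. The peaks of each location were divided by −log10 q into 5 bins of nearly equal size. From the highest to the lowest bin the share went from 75.3% to 48.0% between genes and from 68.3% to 49.0% in gene bodies. In promoters it went from 43.6% (34.0 to 53.7%) in the highest bin to 15.1% (9.18 to 23.7%) in the lowest. The promoter share was thus lower at the top of its own ranking than the other shares at the bottom of theirs, with intervals that overlap. Promoter peaks had a median fold of 6.15, against 7.23 in each of the other locations.

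The sites lay at the summits. Of the 4096 peaks with a site within 200 bp of the summit, 77.4% had it within 50 bp, and the median distance was 24 bp. In promoters the median was 27 bp, and 66.7% lay within 50 bp.

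**Figure D3:**
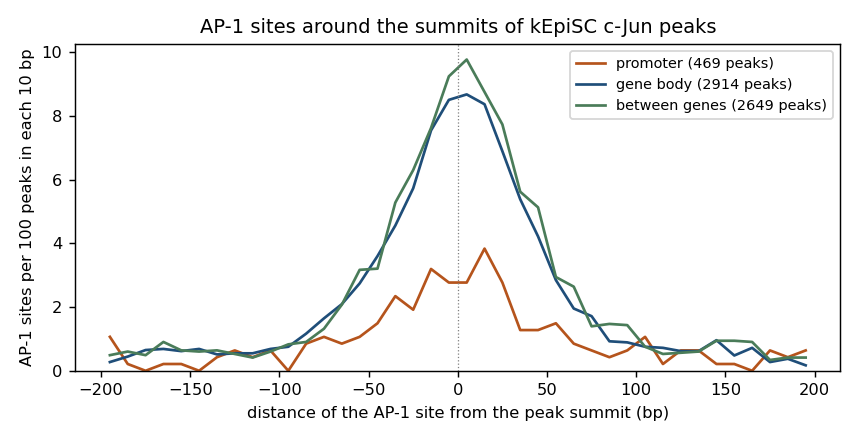
AP-1 sites per 100 peaks in each 10 bp from 200 bp upstream to 200 bp downstream of the summit, for promoter, gene body and intergenic kEpiSC peaks. All 3 curves are highest within 50 bp of the summit, and the promoter curve stays below the others there.

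Median fold was higher in peaks with more sites. Peaks with no site in the central 200 bp (2501) had a median fold of 6.69, those with 1 site (2708) 7.23, those with 2 (739) 8.32 and those with 3 or more (84) 9.88. Of the promoter peaks 25 held 2 sites and none of the 469 held 3 or more (interval 0 to 0.812%). Sites in the same window were most often 11 bp apart from start to start (38 of 935 neighbouring pairs), followed by 10 bp (30 pairs). The Foxa2 and Atxn1 arrays printed above carry the 10 bp spacing and are themselves part of this count.

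Read from the genome's side, few AP-1 sites lay in a peak. Of 433145 exact sites in the genome 5097 lay in a kEpiSC peak (1.18%). Promoter sites lay in a peak most often among the large classes, at 3.23% of 5105 (2.78 to 3.75%), compared with 1.41% of 166365 intron sites and 0.972% of 252510 sites between genes. So promoters had the lowest share of peaks with a site and, of those 3 classes, the highest share of sites with a peak. Sites in masked repeats lay in a peak at 0.362% and other sites at 1.40%. Only uniquely mapped reads were kept, and the part of mappability in this difference was not tested.

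The bases next to the site moved these values further. With A before and C after it, as in ATGAGTCAC, 503 of 22598 genomic sites lay in a peak (2.23%, 2.04 to 2.43%). With T before and A after it, as in TTGAGTCAA, 31 of 21226 did (0.146%, 0.103 to 0.207%). Outside masked repeats the same values were 2.45% and 0.175%. GTGAGTCAC (2.07%) and GTGAGTCAT (1.98%) were close to the first, and CTGAGTCAA (0.385%) and ATGAGTCAA (0.401%) lay near the bottom of the 16 contexts.

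Peaks without an exact site often held a near match. Among the 2501 such peaks TGCGTCA stood in 4.80%, against 0.2999% of their flanks, TTAGTCA in 11.8% against 2.02%, and TGAATCA in 9.92% against 2.00%. TGACATCA, the type printed for the Jun promoter, stood in 8.16% of them (7.15 to 9.29%) against 1.18% of flanks and 3.62% of RefSeq promoters. Any match with at most 1 mismatch to TGAGTCA was found in 67.2%, but also in 46.8% of flanks, so that looser rule separates peaks from their surroundings much less. All of these motifs were searched on both strands.

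Of 21 motifs searched in the same windows on both strands, several of other transcription factors stood above their flanks outside promoters. GGAATG, the core bound by TEAD proteins of the Hippo pathway, stood in 20.4% of peaks outside promoters (19.4 to 21.5%) and 10.6% of flanks. In promoter peaks it stood at 11.3% against 10.8%, and 14.7% of RefSeq promoters hold it. TCAAGGTCA, bound by the naive factor Esrrb and by Nr5a2, stood in 1.60% against 0.512%, or 3.12 times as often. GGGTGTGG, a Klf motif, stood in 3.81% (3.34 to 4.35%) against 2.14%, or 1.78 times as often, and in the EpiSC list, from cells without the transgene, in 3.47% against 2.02%, or 1.72 times. RefSeq promoters hold TCAAGGTCA in 0.423% and GGGTGTGG in 3.56%. The octamer ATGCAAAT of Oct4 was level with its flanks (1.13% against 1.10% over all peaks), and 1.74% of RefSeq promoters hold it.

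Motifs of promoter-binding factors did not stand alike in promoter peaks. CCGGAAGT of ETS proteins stood in 5.33% against 0.320% of flanks and in 3.89% of all RefSeq promoters, and GCGCATGCG of Nrf1 in 2.99%, in none of the flanks and in 1.75% of RefSeq promoters. The SP-type GGGGCGGGG stood in 7.89% against 1.49% of flanks and 11.4% of RefSeq promoters, and AAGATGGC of YY1 in 2.13% against 1.39% and 2.75%. Peak and flank windows are 200 bp and RefSeq promoters 300 bp, so a lower share in peaks than in RefSeq promoters is not a like comparison. CCAAT, bound by NF-Y, was level with its flanks (22.4% against 23.2%) and stands in 37.4% of RefSeq promoters, whose windows are longer. The Maf-type TGCTGAGTC shares letters with the AP-1 site, and it stood in 177 peaks with the AP-1 site and in 6 without it.

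As background, 4575 of all 6032 peaks (75.8%, 74.7 to 76.9%) overlapped an EpiSC peak by at least 1 bp. In promoters 250 of 469 did (53.3%, 48.8 to 57.8%), against 76.8% in gene bodies (75.2 to 78.3%) and 78.8% between genes (77.2 to 80.3%). Peaks with an AP-1 site overlapped an EpiSC peak in 80.8% and those without in 68.9%. Overlap counts for smaller groups of peaks are to be read against the 75.8%.

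Peaks of highest fold in each class lay at genes of varied roles. In promoters, after Prkag3 (fold 20.8), came Cxxc5 (17.6), whose product binds unmethylated CpG, Vim (14.8) and Emp3 (14.1), a membrane protein gene. The Cxxc5 peak held no AP-1 site, Vim 2 and Emp3 2 in the central window. In 5′ UTRs the highest folds were at Sfn (13.7), which encodes the epithelial 14-3-3 sigma, Ubap1 (13.3) of the ESCRT-I complex, Zfp217 (11.4) and the nuclear receptor corepressor Nrip1 (11.05).

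Coding exons of Dhx37 (an RNA helicase, exon 8, fold 14.9), Hspg2 (perlecan of the basement membrane, exon 2, 14.1), Tmprss9 (exon 16, 12.1) and Wwp2 (a ubiquitin ligase, exon 4, 12.1) held the strongest peaks of that class. Of these the Hspg2 and Wwp2 peaks held an AP-1 site in the central window. In 3′ UTRs they were at Ap5z1 (19.1), Synrg and Oasl2 (14.9 each) and Shank2 (11.9). The Synrg peak is nearest to Dusp14 and the Shank2 peak to the cortactin gene Cttn.

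Noncoding exons of Platr22, a long noncoding RNA, (17.5) and of BC055402 (15.0), 1600002D24Rik and E030011O05Rik (13.8 each) led that class, and the nearest coding gene of the 1600002D24Rik peak is Ets2. Introns of Fars2 (25.2), Jazf1 and Sh3gl3 (24.1 each) and Zbtb20 (22.5) held peaks with 4, 2, 3 and 2 sites. Between genes, after Slco2a1, the highest folds were nearest to Sec11c (23.6), a signal peptidase subunit, Lrrc74a (23.5) and Foxa2 (22.5). Every one of these 28 peaks, chosen for high fold, overlapped an EpiSC peak, against 75.8% of all 6032 peaks.

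The peaks with most AP-1 sites over their whole length were not those of highest fold, apart from Foxa2. A peak of 810 bp near Twsg1, a BMP-binding protein gene, and the 441 bp peak in Atxn1 held 16 each, with folds of 12.7 and 8.32. An intron 16 peak of Nell2 held 10 (fold 6.31), and peaks nearest to Nsmf and Myod1 held 6 each (7.23 and 4.51).

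Among the widest peaks were those of 1149 bp near Ppef2 (fold 10.6), 1124 bp near Pou5f1 (2.25) and 1098 bp near Klf6 (12.8). Peaks near Erbin (1085 bp) and Phlda1 (1059 bp) followed. These 5 also overlapped an EpiSC peak and held between 1 and 4 sites over their length.

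Neighbouring peaks were joined into clusters where their centres lay no farther apart than 25 kb divided by 2. In all, 57 clusters of 4 or more peaks held 274 peaks (4.54%) and spanned 6130 to 31774 bp, with a median of 16090 bp. Of these, 56 had at least 1 peak with an AP-1 site, 13 included a promoter peak, and in 19 every peak overlapped an EpiSC peak. Of the clustered peaks 78.8% overlapped an EpiSC peak, close to the 75.8% of all 6032 peaks. Clustered peaks held the site less often than others, at 46.4% (40.5 to 52.3%) against 54.9% (52.5 to 57.2%) for groups of 2 or 3 and 60.9% (59.4 to 62.4%) for the 4079 peaks that stood alone. Their median fold was 7.09, and that of lone peaks was 7.23.

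The largest cluster, 13 peaks at chr17:35499654-35515074, covered Pou5f1, the Oct4 gene, and part of Tcf19. It stood apart from all others. Its folds ran from 2.25 to 6.32, 2 of its peaks held an AP-1 site in the central 200 bp and 4 over their whole length, and the local background expected at its summits was 8.199 to 34.8 times the median over all peaks. Of its peaks 11 overlapped an EpiSC peak. By the study's methods the EpiSCs, too, descend from Oct4-GFP (OG2) mice, and reads from a reporter and from the gene itself cannot be told apart in either list. The next 9 clusters had background of at most 6.15 times the median.

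At Dusp14, which encodes a dual specificity phosphatase, 8 peaks ran over 24388 bp (chr11:84042875-84067262), 6 of them in intron 1 and 2 in the 3′ UTR of the neighbouring Synrg. The strongest were the Synrg peak (14.9) and an intron peak 6356 bp from the start (14.3), and neither held the site in its central window. Another 8 peaks upstream of the splicing factor gene Smndc1 (chr19:53404170-53424863) all lay between genes, with folds of 4.51 to 12.1. The strongest of them held 2 sites.

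The phosphate transporter gene Slc20a1 (chr2:129232540-129258263) had 7 peaks, 2 of them nearer to Ckap2l, led by 1 of fold 15.4 without a site, 35584 bp downstream of the start. At Itgav, the integrin alpha-V gene (chr2:83714672-83744831), 7 peaks ran from 9544 bp upstream of the start into intron 2. Their folds ran from 4.38 to 8.72, and 2 held the site in the central 200 bp and 3 over their whole length. At Cldn4, a tight junction claudin gene (chr5:134941988-134959577), all 6 peaks were also found in EpiSCs, and the promoter peak 164 bp upstream (fold 9.89, 37 reads) held 2 sites.

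Clusters also lay near 2 genes of prostaglandin handling. Ptges, the prostaglandin E synthase gene, had 6 peaks shared with Tor1b (chr2:30920259-30932267, folds 4.92 to 10.2). Slco2a1 had 5 within 7594 bp (chr9:102993078-103000671), of which the highest was 28.5 and the others 6.69 to 9.03. Deptor, an mTOR inhibitor gene, held 6 in intron 1 (chr15:55134765-55145875, highest 8.95). The cluster named for Mrpl33 lay in intron 7 of the ribokinase gene Rbks (chr5:31628670-31644582), with 5 peaks up to 18.8.

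**Figure D4:**
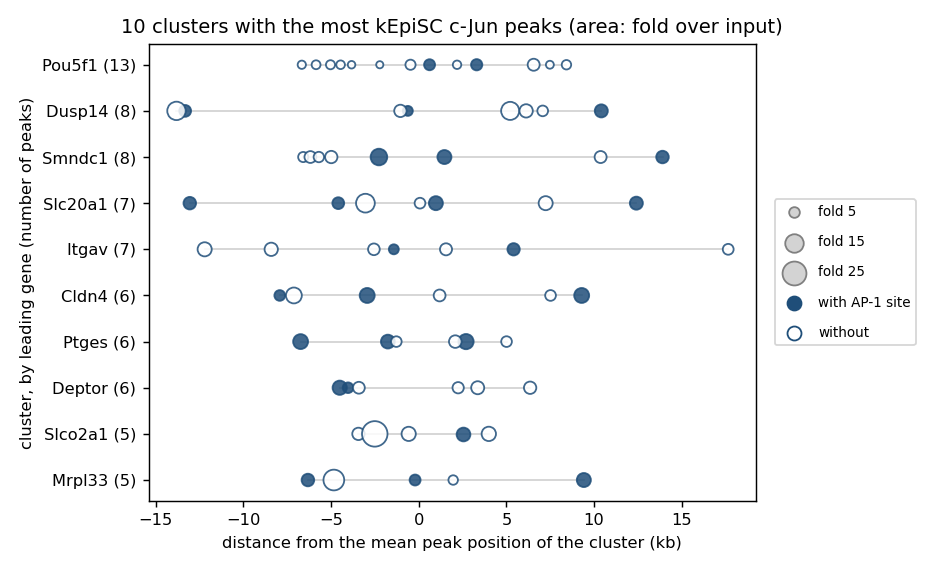
The 10 clusters with the most kEpiSC c-Jun peaks; each circle is a peak at its distance in kb from the mean peak position of its cluster, its area follows the fold over input, and filled circles hold the AP-1 site in their central 200 bp. The 13 peaks at Pou5f1 have folds of at most 6.32, and the highest folds, at Slco2a1 (28.5), Mrpl33 (18.8) and Slc20a1 (15.4), are open circles.

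A few of the other clusters are named here after their values were seen. Cdh1, the E-cadherin gene, had 4 peaks with a promoter peak among them (highest fold 15.0). Dsp, the desmoplakin gene, had 4 (13.7), and Plaur, the urokinase receptor gene, shared 5 with Cadm4 and Irgc1 (14.6). A further 4 each lay at Itga5 (9.41) and Src (9.61). Fosl1 of the AP-1 family shared 5 with its neighbours Drap1 and AI837181, highest 13.2. Klf6 had 2 clusters, of 5 and 4 peaks.

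Assigned to the nearest protein-coding start, the 6032 peaks fell to 3622 of 21000 genes. Of these 2373 genes were nearest to 1 peak, 711 to 2, 272 to 3 and 266 to 4 or more. The most peaks went to Trib1, a pseudokinase gene, with 17 (folds 5.06 to 16.4, from 58 to 175482 bp away). Reep3 followed with 15, Sgms1, a sphingomyelin synthase gene, with 14, Pakap and Irf2bp2 with 13 each, and Klf6 and the cytolinker gene Dst with 12 each. Phlda1 had 11, Hs6st1 10, Itgav 10, Pou5f1 10 and Ergic1 9. Other genes, among them Atxn1 and Slc20a1, also had 9, and Ergic1 is named for the highest fold of that tie. A gene with much empty space around it collects more peaks under this rule: the farthest peak was 331652 bp away at Klf6 and 308508 bp at Hs6st1, but 34339 bp at Itgav and 6279 bp at Pou5f1.

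A closer rule counted genes with a peak centre within 10 kb of a start. Over all protein-coding genes 1736 of 21000 had one, which is 8.27%, and these peaks had a median fold of 6.70 and held the AP-1 site in 49.2%. The counts for 17 gene lists are read against that percentage, and no list was tested for enrichment. The lists were made with earlier results of these data known. Genes of 1 list can share a peak. For 14 of the 17 lists the share was above 8.27%. Among the 3016 peaks of higher −log10 q, which reached 3.82% of all genes, 15 of the 17 lists lay above that share. Naive pluripotency genes fell to 1 of 24 (4.17%) and antioxidant genes to 1 of 20. Primed pluripotency genes had 0 of 29 (interval up to 11.7%) and Wnt genes 0 of 26 (up to 12.9%). JNK genes had 2 of 20, epithelial junction genes 3 of 23, immediate early genes 4 of 23 and actin genes 5 of 30.

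Among the AP-1 genes themselves, 11 of 24 family members had a peak within 10 kb (45.8%, 27.9 to 64.9%, median fold 6.85). For the Jun group, Junb had 1 peak of fold 9.89 with 3 sites, printed above, and Jund 1 of fold 5.48 in its 5′ UTR with none. Jun had 2. Its promoter peak 70 bp upstream had a fold of 7.82 and 16 reads and held no TGAGTCA.

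The other Jun peak filled the coding sequence. Of the 1005 coding bases of this gene, which has a single exon (chr4:95050267-95051271), 995 lay in a peak of 996 bp with a fold of 7.42 and 37 reads (99.0%). It held no AP-1 site, and its local background was 6.15 times the median. The coding bases of Junb, Fosb, Fosl1 and Klf4 lay in no peak. The same position had a fold of 15.9 in the EpiSC list.

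Among the Fos group, Fosb had 1 peak (10.2, 1 site) and Fosl1 2 (up to 6.69, the strongest without a site). Of the dimer partners, Atf3, a stress-induced repressor, had a promoter peak of fold 10.3 with no AP-1 site, and Jdp2 1 of 5.54. The small Maf genes Mafk (7.48) and Maff (6.85), the Nrf2 gene Nfe2l2 (5.49, promoter) and Bach1 (5.06) completed the list. Of these 11 genes 9 had their strongest peak also in EpiSCs, all but Jdp2 and Nfe2l2.

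Klf genes were next to a peak in 6 of 20 cases (interval 14.6 to 51.9%). Klf2 had the highest fold (12.7, 2 sites), followed by Klf4 (8.87, 1 site), Klf6 (7.78), Klf9 (7.72), Klf3 (7.09) and Klf10 (4.47). The Klf4 peak lay 9410 bp upstream of the endogenous gene. No peak covered a coding base of Klf4, the part that a transgene would share. The input came from the same transgenic line, so this absence does not show whether transgene reads were present.

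Naive pluripotency genes had a peak in 5 of 24 cases (20.8%, 9.25 to 40.5%). After Klf2 these were Fbxo15 (6.98), Tbx3 (6.69), Esrrb (6.15) and Dppa5a (6.15), and the Esrrb peak in intron 1 held 1 site. Primed pluripotency genes had one in 2 of 29 (6.90%, 1.91 to 22.0%), Cldn6 (6.70) and Epcam (6.69), which are also junction genes. The Wnt list had 1 of 26 (3.85%, 0.682 to 18.9%), Wnt5b (5.15), and the cell cycle list 2 of 26, Ccnd3 (7.86) and Cdkn2a (7.63). The last 3 lists lay below 8.27% with intervals that hold it, and this position depended on the setting. Within 50 kb all 17 lists lay above the 26.97% of all genes, these 3 at 34.5%, 30.8% and 30.8%. Within 5 kb primed pluripotency genes (6.90%) lay above the 5.12% of all genes, and Wnt (0%) and cell cycle genes (3.85%) below it. At higher −log10 q cell cycle genes had 2 of 26 (7.69%), against 3.82% of all genes.

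The list of intermediate filaments and lamins had the highest share of any list, 12 of 18 (66.7%, 43.8 to 83.7%, median fold 6.69). Among these 12 are Pkp2, Pkp3, Dsp and Plec, which encode neither a filament protein nor a lamin. Vim led with 14.8 and 2 sites. A peak of 12.1 within 10 kb of the lamin gene Lmnb2 is the one in the coding exon of Tmprss9. The keratin genes Krt8 (10.4, 39 reads, 1 site) and Krt5 (8.87) and the plakophilin gene Pkp2 (8.56) followed.

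Integrin and basement membrane genes had one in 10 of 23 cases (43.5%, 25.6 to 63.2%). Sparc (11.2), Itga3 (10.2), Itgav (8.72), Lamb1 (8.32) and Thbs1 (7.86, promoter, 2 sites) had the highest folds. Epithelial junction genes had one in 9 of 23 (39.1%, 22.2 to 59.2%), among them the claudin gene Cldn4 (11.05) and F11r (10.1, 2 sites), which encodes a tight junction adhesion molecule. Actin and focal adhesion genes followed with 11 of 30 (36.7%, 21.9 to 54.5%), among them Actg1 (10.8), Vasp (10.3), Myl12a (8.09), Actn4 (7.09) and Cald1 (6.95).

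**Figure D5:**
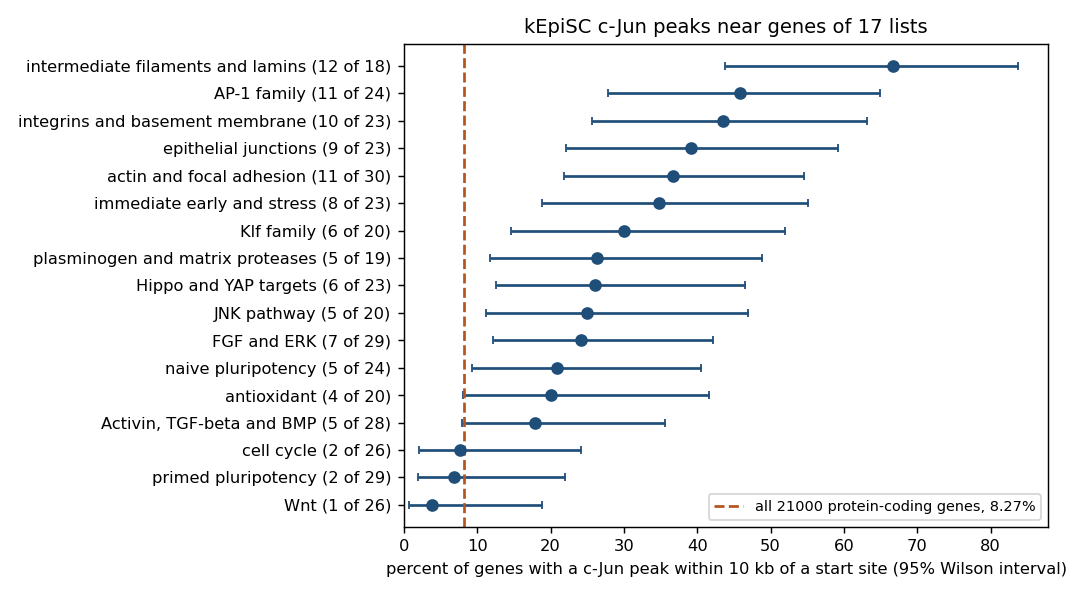
Percent of the genes of 17 lists that had the centre of a kEpiSC peak less than 10 kb from a start, with 95% Wilson intervals; the dashed line marks the 8.27% of all 21000 protein-coding genes. Intermediate filaments and lamins stand highest at 66.7%, and the Wnt, primed pluripotency and cell cycle lists lie below the line with intervals that cross it.

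Immediate early and stress genes had a peak in 8 of 23 cases (34.8%, 18.8 to 55.1%), including Atf3, Trib1 (9.51), Mcl1 (7.48, the strongest of 4), Dusp1 (7.37) and Gadd45g (6.70). In the JNK pathway 5 of 20 did (interval 11.2 to 46.9%), and none of those 5 peaks held TGAGTCA in the central 200 bp, though the Mapk8 and Map4k4 peaks each held 1 site nearer an edge. They were at the phosphatase genes Dusp8 (10.2) and Dusp1 and at the kinase genes Map3k7 (6.92), Mapk8 (5.93), which encodes JNK1, and Map4k4 (3.95). The Dusp8 promoter peak is the one printed above with 2 CRE-type sites.

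Plasminogen and matrix protease genes had one in 5 of 19 (26.3%, 11.8 to 48.8%), which were Plaur (12.1), Mmp2 (9.61), Timp2 (8.87), Plat (7.09) and Serpinb9 (6.03). Hippo pathway and YAP target genes had one in 6 of 23 (26.1%, 12.6 to 46.5%), with the highest median fold of the lists, 9.70. The highest were at Tead4 (13.4), Ajuba (11.3), Amotl2 (10.5), Vgll4 (9.80) and Axl (9.61).

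FGF and ERK genes had one in 7 of 29 (24.1%, 12.2 to 42.1%), among them Braf (8.34, promoter), Dusp5 (8.25), Spry4 (7.97) and Sos1 (7.09). Activin, TGF-beta and BMP genes had one in 5 of 28 (17.9%, 7.88 to 35.6%): Tgif1 (9.84), Smad7 (9.47), Tdgf1 (7.16), Smad4 (5.60) and Pmepa1 (4.77). Antioxidant genes had one in 4 of 20 (20.0%, 8.07 to 41.6%), which were Sqstm1 (10.5), Prdx1 (5.72), Srxn1 (5.57, promoter, 2 sites) and Hmox1 (5.54).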

How the data were processed

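The series measured c-Jun ChIP and input DNA in kEpiSCs and EpiSCs, with 2 libraries of each kind per line. The authors' methods state Bowtie2 mapping (very sensitive, uniquely mapped reads) and MACS2 peak calling with default settings against input. The submitters' processing notes name bcl2fastq, Bowtie2, SAMtools, MACS, bedtools and build mm10, with versions not given in the sources used here. How replicates were combined for the lists is not stated, read length differs between the labels and the methods, and library depths were not given. The deposited lists hold, for each peak, a score, a linear fold over input, and −log10 p and −log10 q values. The score was not used. No column belonged to another sample (0 columns).

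Peak centres were classed on the RefSeq annotation of the mm10 assembly (curated transcripts). Sequences came from that assembly, and promoter sequences of 300 bp from RefSeq. Reads at the summit were solved from fold and p within 0.01. Shares have Wilson and differences Newcombe 95% intervals, and no p-values were computed. Python 3.11.15, numpy 2.4.6, pandas 2.3.3, scipy 1.17.1, pysam 0.24.0, matplotlib 3.10.9 and samtools 1.23.1 were used, and the functions were tested on simulated data.

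Named genes are those nearest to the 4 peaks of highest fold per class, the 10 largest clusters, the 12 genes nearest to most peaks, the 5 members per gene list of highest fold (the whole AP-1 family), the 6 peaks with most sites, the 6 widest, the 5 farthest, and Jun, Klf4 and Pou5f1. Some genes that this rule names are not reported here. Members and lists were chosen with earlier results of these data known. Alternatives changed the promoter window, transcript set, peak position, motif window and mismatch, cluster link, gene distance, overlap and q threshold.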

Additional observations from a re-analysis of the deposited data

How the results depend on the processing

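No paired analysis was possible because the deposited lists number 1 per line and carry no values per library, so leaving out a replicate was not possible either. Of 109 alternative values 41 stayed within the main interval or 1.5 times the main count, and 68 moved. A reversal was scored only for the differences in AP-1 share between promoters and the other locations, and 0 of those reversed. The cause of the moves was not tested except where a rule widens or narrows by construction. The promoter share of peaks (7.78%) became 16.7% with a window of 5 kb upstream and 1 kb downstream, 9.71% with 1 kb on both sides, 10.4% with predicted transcripts and 5.17% among the 3016 peaks of higher −log10 q. The gene body share (48.3%) became 44.1%, 46.4% and 55.4% under the first 3 of these settings. The share between genes (43.9%) became 39.2% with the 5 kb window, 34.3% with predicted transcripts and 45.9% at higher q. The AP-1 share of promoter peaks (25.4%) became 19.0% in the central 100 bp, 56.1% with 1 mismatch (flanks 46.5%), 36.0% with the CRE-type site added, 38.5% at higher q and 39.9% with the 5 kb window. For gene bodies (60.2%) it was 63.9% around the summit, 43.3% in 100 bp, 88.0% with 1 mismatch (flanks 47.9%) and 66.8% at higher q. Between genes (62.6%) it was 66.6%, 44.6%, 89.996% (flanks 48.4%) and 70.0%. The promoter share stayed below both others under every alternative. The 57 clusters became 18 with a 5 kb link, 150 with 25 kb and 8 at higher q. Genes with a peak (8.27%) became 5.12% within 5 kb, 26.97% within 50 kb and 3.82% at higher q. With at least 50% of the peak covered, the overlap with EpiSC peaks fell to 48.0% in promoters, 68.6% in gene bodies and 71.2% between genes. A median of 14 reads at the summit limits the precision of single folds.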

Other observations

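The X chromosome held 31 of the 6032 kEpiSC peaks, or 0.181 per Mb, while the 19 autosomes held between 1.73 and 3.37 per Mb. Of its 22320 AP-1 sites 33 lay in a peak (0.148%), against 0.865 to 1.64% on the autosomes. The X peaks held the AP-1 site in their central 200 bp in 77.4%. The EpiSC list had 96 peaks there, or 0.561 per Mb.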
